A study of Mus musculus with 26 samples.

Results

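Lungs of wild-type (Il10+/+) mice exposed to O3 for 72 hr were compared with lungs of Il10+/+ mice that had breathed filtered air. The comparison held 7 of the series' 26 arrays, chosen by their labels alone: 3 arrays of 72 hr of O3 and 4 air arrays, of which 2 came from 24 hr and 2 from 48 hr in the chambers. No air group of 72 hr was analysed here, so an effect of the third day in the chamber and an effect of O3 cannot be told apart. These Il10+/+ mice were C57BL/6 males from a commercial supplier, 6 to 8 weeks old, kept in individual wire cages and housed in chambers that ran on filtered air or on 0.3 ppm O3 during 23.5 hr of each day. RNA came from the left lung, which was frozen while the right lung was lavaged, so airway and alveolar leukocytes were not washed out of the tissue measured. Other groups were used beside it: Il10+/+ mice after 24 and 48 hr of O3 (3 arrays each), male Il10-/- mice of the same age (B6.129P2-Il10tm1Cgn/J, which lack interleukin-10) after 72 hr of O3 (3 arrays), and Il10-/- mice in air for 24 or 48 hr (4 arrays).

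O3 is an oxidant gas that reacts with the lining of the airways and injures ciliated and type 1 alveolar epithelium where the terminal bronchioles open into the alveoli. Club cells and type 2 alveolar cells, the progenitors there, then divide and spread over the denuded surface, and macrophages clear debris. RNA of a whole lobe carries signals of this cell division, of stress proteins of the spreading epithelium, of provisional matrix and of resident and recruited leukocytes together. In such bulk tissue, fewer cells of a type and less RNA per cell cannot be told apart.

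Values are log2 expression per gene from Affymetrix mouse expression arrays after Robust Multichip Average (RMA), with the brightest probe set standing for each of 12394 genes. A change is the difference between group means on that log2 scale with its SE, and p-values are from limma with Benjamini-Hochberg adjustment over all 12394 genes at a threshold of 0.05. "Rose" and "fell" are used only of genes past that threshold. Surfactant protein C (Sftpc), of type 2 cells, was at 14.30 to 14.46 and the club cell secretoglobin Scgb1a1 at 14.13 to 14.27 on the 7 arrays, levels near the top of the range for both of these lung markers. Pearson's r over genes was 0.9939 to 0.9963 among the 3 O3 arrays, 0.9875 to 0.9952 among the 4 air arrays and 0.9824 to 0.9908 between the groups. The labels do not say whether an array held 1 animal or a pool, so p-values measure a spread between arrays that may in part be technical. That spread was estimated within groups over all 25 arrays of the fit, Il10-/- arrays included, and not over the 7 alone.

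After 72 hr of O3, 306 genes rose and 85 fell relative to air, which is 2.47% and 0.686% of the genes tested. Counts of called genes in the lists below stand against these shares. An unadjusted p under 0.05 by limma was found for 1901 of the 12394 genes. The genes that rose moved further than those that fell. The median change was 0.80 among the former and -0.52 among the latter, against -0.03 over all genes, and 110 genes rose at least 2-fold while 7 fell by that much. Genes that rose started from a low level, with a median of 6.92 in air and 8.04 after O3, whereas genes that fell started high (8.53 in air, 8.10 after O3), and the median of all genes was 7.23 in air and 7.22 after O3. Arrays of the 2 groups did not overlap for 389 of the 391 genes, the exceptions being Upk3b and Cpe, and they did not overlap for 18.2% of all genes tested. Lack of overlap was also a condition for naming the 12 largest changes each way, so it adds no support for those genes. Of the genes that rose, 153 stood in at least 1 of the gene lists described below, 67 of them in the 2 cell cycle lists, and of the genes that fell 17 stood in a list. The counts depended on single arrays. Without the third 72-hr O3 array 171 genes rose and 18 fell. The lower genes numbered 38 without the first 24-hr air array, 50 without the first 48-hr air array or the first O3 array, and 49 without the second O3 array. The array of an Il10-/- mouse after 24 hr of O3 (replicate 2) was left out, since its r with the others was 0.816 to 0.849 and its Sftpc was 6.36. The study's methods leave out an array of that group too. With it in the fit 17 genes rose and 0 fell, and without either of the 2 remaining arrays of that group 471 rose and 201 fell.

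**Figure D1:**
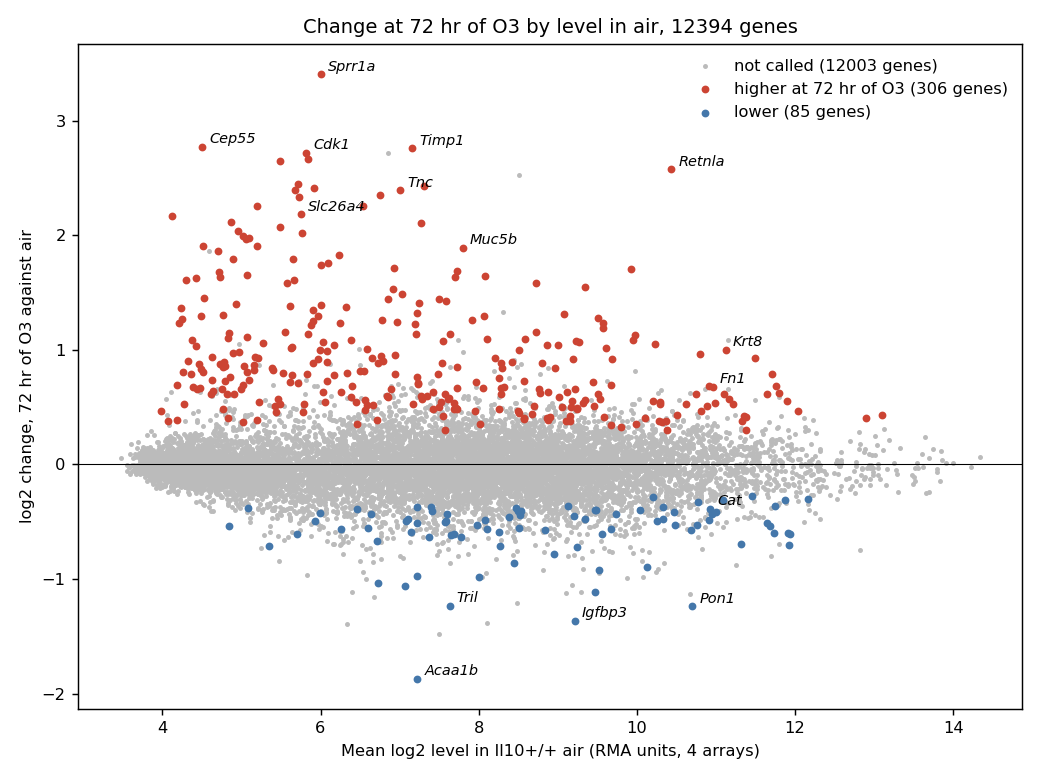
Change in each of 12394 genes between 72 hr of O3 and air (log2, vertical axis) against its mean log2 level on the 4 air arrays (horizontal axis). The 306 genes that rose are red, the 85 that fell blue and the others grey, and some genes are named. The changes reach 3.40 (Sprr1a), and the lowest value is -1.87 (Acaa1b).

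The list with the most genes that rose was that of mitosis. Of 52 measured genes of mitosis and chromosome segregation, 42 rose, 0 fell and 10 did not pass, with a median change of 1.39 against -0.03 over all genes. Their mean level was 7.23 to 7.32 on the 3 O3 arrays and 5.79 to 5.97 on the 4 air arrays, so the list as a whole lay apart on every array. Cdk1, the cyclin-dependent kinase of mitotic entry, read 5.43 and 6.08 in air of 24 hr, 5.83 and 5.91 in air of 48 hr, and 8.53, 8.38 and 8.68 after 72 hr of O3. The change was 2.72 (SE 0.31, adjusted p = 1.2e-05), or 6.57-fold. Its partners Ccna2 and Ccnb2, the mitotic cyclins, rose by 2.41 (SE 0.26, adjusted p = 6.26e-06) and 2.39 (SE 0.29, adjusted p = 1.68e-05). Birc5, survivin of the chromosomal passenger complex, rose from 5.13 to 5.72 in air to 8.05 to 8.27 (change 2.65, SE 0.32, adjusted p = 1.9e-05), with no array of one group within the range of the other. The same held for Mki67, which encodes the proliferation antigen Ki-67, at 6.53, 7.01, 6.84 and 6.61 in air and 9.36, 9.20 and 8.73 after O3 (change 2.35, SE 0.31, adjusted p = 6e-05). Cdc20, an activator of the anaphase-promoting complex, rose by 2.43 (SE 0.42, adjusted p = 0.00105) and the mitotic kinase Pbk by 2.45 (SE 0.29, adjusted p = 1.68e-05).

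The list also held the spindle and kinetochore genes Plk1 (1.61), Aurka (2.11), Aurkb (1.63), Bub1 (1.66), Nuf2 (1.61) and Top2a (2.25), all of which rose. A second probe set of Top2a differed by 0.10. Cep55, which acts at the midbody when daughter cells part, stood in no list and shared the lowest adjusted p of the comparison with the mitosis gene Kif20a. It was at 4.42, 4.73, 4.67 and 4.17 in air and 7.26, 7.37 and 7.19 after O3, a change of 2.77 (SE 0.20, adjusted p = 3.34e-08) or 6.83-fold. Among the O3 arrays this gene varied less than among the air arrays.

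The promoters of the mitosis genes are shown because the genes moved together. A promoter window of 250 bases before to 50 bases after the first listed transcription start in RefSeq (GRCm38.p6) was used for 9888 of the 12394 genes. It was used for 36 of the 42 mitosis genes that rose. The other genes had no window or lay on a chromosome that was left out. The letters TTTGAA, the core of the cell cycle genes homology region (CHR) at which the DREAM complex is known to hold such genes silent in resting cells, stood on either strand in 29 of those 36 windows (80.6%) and in 13% of all windows. CCAAT, the letters bound by nuclear factor Y, stood on either strand in 29 of 36 (80.6%) and in 38.1% of all windows, and both sets of letters stood in 26 of 36 (72.2%) against 5.16% of all. Neither motif contains the other. Over all 43 measured mitosis genes with a window, whether they moved or not, 30 (69.8%) held TTTGAA. Among 188 windows of genes that rose and stood in neither cell cycle list, 35 (18.6%) held it. The lists do not hold every gene of cell division. Aspm and Plk4, for example, rose and stand in neither, so those windows may include other such genes. The 150 bases before the start are printed 5′ to 3′ on the gene's strand, with both motifs, or their reverse complements, in capitals, for Cdk1 (chr10:69352913-69353062 on the minus strand), Mki67 (chr7:135716380-135716529 on the minus strand), Cdc20 (chr4:118437344-118437493 on the minus strand), Ccnb2 (chr9:70421555-70421704 on the minus strand) and Birc5 (chr11:117849087-117849236 on the plus strand).
Cdk1: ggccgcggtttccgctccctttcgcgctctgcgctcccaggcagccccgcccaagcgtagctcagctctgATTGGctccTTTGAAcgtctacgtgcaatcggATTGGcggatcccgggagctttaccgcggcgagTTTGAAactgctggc
Mki67: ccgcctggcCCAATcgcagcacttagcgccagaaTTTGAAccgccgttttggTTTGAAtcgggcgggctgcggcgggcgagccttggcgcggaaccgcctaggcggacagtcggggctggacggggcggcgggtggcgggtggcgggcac
Cdc20: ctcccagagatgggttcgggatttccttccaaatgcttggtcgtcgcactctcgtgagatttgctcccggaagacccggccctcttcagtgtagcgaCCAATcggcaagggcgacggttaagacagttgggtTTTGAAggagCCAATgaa
Ccnb2: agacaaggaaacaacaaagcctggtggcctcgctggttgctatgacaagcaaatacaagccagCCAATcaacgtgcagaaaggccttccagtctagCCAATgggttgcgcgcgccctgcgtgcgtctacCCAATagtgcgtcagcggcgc
Birc5: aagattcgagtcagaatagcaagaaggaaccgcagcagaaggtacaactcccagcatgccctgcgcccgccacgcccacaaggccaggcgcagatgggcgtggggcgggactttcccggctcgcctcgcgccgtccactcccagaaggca
In these stretches Cdk1 had 2 matches of each motif, Mki67 had 2 of TTTGAA and 1 of CCAAT, and Cdc20 had 1 of TTTGAA and 2 of CCAAT. Ccnb2 had 3 of CCAAT and none of TTTGAA, and Birc5 had neither, though its change was as large. A match of letters is a description and not a measured binding site.

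**Figure D2:**
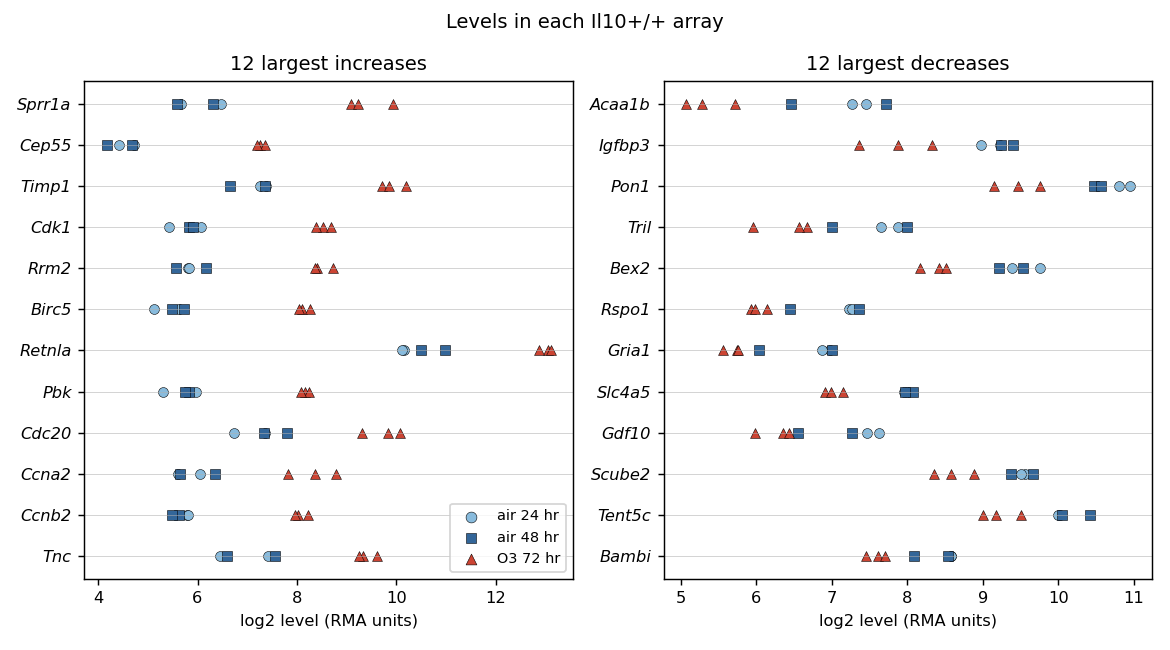
Log2 expression (horizontal axis) of the 12 genes with the largest increases (left) and the 12 with the largest decreases (right), with 1 point per array: circles for air of 24 hr, squares for air of 48 hr and triangles for 72 hr of O3. For each of these genes the triangles lie wholly above or below the air arrays, since they were chosen for arrays that do not overlap.

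Genes of DNA replication rose with them but by less. Of 36 measured, 25 rose, 0 fell and 11 did not pass, with a median change of 0.70, and all 36 had a positive change (range 0.04 to 2.66). The mean level of the list was 7.34 to 7.56 on the O3 arrays and 6.57 to 6.68 on the air arrays. Rrm2, the cell cycle subunit of ribonucleotide reductase, which makes the building blocks of DNA, was at 5.80, 5.83, 6.17 and 5.58 in air and 8.41, 8.37 and 8.73 after O3 (change 2.66, SE 0.39, adjusted p = 0.000186). Tk1, thymidine kinase, rose by 1.91 (SE 0.16, adjusted p = 1.66e-07), and Uhrf1, which carries DNA methylation over to the new strand, rose by 1.97 (SE 0.27, adjusted p = 9.62e-05). Of the replicative helicase, Mcm5 rose 3.56-fold (change 1.83, SE 0.23, adjusted p = 3.77e-05) and Mcm2, Mcm3, Mcm4 and Mcm7 by 0.50 to 0.84, and the sliding clamp Pcna by 0.69. Leaving out single arrays of the 25 gave 18 to 31 genes. In the windows of the genes that rose, TTTGAA stood in 2 of 21 (9.52%), CCAAT in 11 of 21 (52.4%), and TTCCCGCC, a form of the site of E2F factors, on either strand in 5 of 21 (23.8%) against 3.47% of all windows and 2.78% of the mitosis windows. The same 150 bases are printed with TTCCCGCC, CCAAT and their reverse complements in capitals for Uhrf1 (chr17:56303187-56303336 on the plus strand), which held both, and for Rrm2 (chr12:24708104-24708253 on the plus strand), which held CCAAT alone.
Uhrf1: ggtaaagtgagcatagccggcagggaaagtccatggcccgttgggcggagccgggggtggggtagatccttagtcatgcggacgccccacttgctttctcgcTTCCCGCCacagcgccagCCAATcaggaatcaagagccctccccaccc
Rrm2: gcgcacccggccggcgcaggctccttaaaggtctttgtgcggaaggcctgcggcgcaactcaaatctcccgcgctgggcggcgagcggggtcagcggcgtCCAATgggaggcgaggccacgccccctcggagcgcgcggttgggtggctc

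A minority of chromatin and repair genes rose. Of 20 histone chaperones and acetyltransferases 8 rose and 0 fell (median 0.31), led by Asf1b (1.09, SE 0.17, adjusted p = 0.000311), a chaperone of newly made histones, Hells (0.94, SE 0.14), a remodeler, and the chromatin protein Hmgb2 (0.89, SE 0.13). Hat1, the acetyltransferase of new histones, rose by 0.63 (SE 0.13, adjusted p = 0.0053). Without the third O3 array its adjusted p was 0.0679 and 5 of the list passed. Of 21 genes of DNA damage signaling and repair 7 rose (median 0.32), among them Brca1 (1.09, SE 0.17, adjusted p = 0.00026) and Rad54l (0.66, SE 0.12, adjusted p = 0.00198) of recombination repair. The 4 probe sets of Brca1 differed by -0.07 to 1.09 and the 3 of Rad54l by 0.04 to 0.66. Only 3 genes of the repair list passed without the first or the second O3 array, and H2ax (0.66, adjusted p = 0.00893) was one that did not (adjusted p = 0.0757 and 0.0612). Of the genes of G1 8.33% rose, against 2.47% of all genes tested, and the list median was 0.10. Of 24, Rbl1 (0.65, SE 0.12, adjusted p = 0.0013), a pocket protein, and E2f8 (0.67, SE 0.16, adjusted p = 0.0168) rose and the inhibitor Cdkn1c fell by 0.56 (SE 0.15, adjusted p = 0.04). On leaving out 1 array the adjusted p reached 0.104 for E2f8, without the first O3 array, and 0.178 for Cdkn1c, without the third. Of 18 p53 targets 1 was called, Sesn1, which fell by 0.57 (SE 0.15, adjusted p = 0.0409, and 0.194 without the third O3 array). Sesn1 lost its call for 6 of the 7 arrays compared, left out in turn.

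Genes of stressed and spreading epithelium formed another large group. Of 29 measured keratins, cornified envelope proteins and markers of injured epithelium, 14 rose, 0 fell and 15 did not pass (median 0.42). Sprr1a, a small proline-rich protein of the cornified envelope that airway and alveolar epithelium makes under stress, had the largest change of all genes. It was at 6.46 and 5.66 in air of 24 hr, 6.32 and 5.59 in air of 48 hr, and 9.08, 9.22 and 9.93 after 72 hr of O3, a change of 3.40 (SE 0.46, adjusted p = 7.48e-05) or 10.6-fold. S100a14, a calcium-binding protein of epithelium, was at 5.57 to 5.90 in air and 7.58, 7.68 and 8.08 after O3 (change 2.02, SE 0.26, adjusted p = 4.06e-05). No array of one group reached the other for either gene, as for nearly all called genes.

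The simple keratins Krt8, Krt18 and Krt19 rose by 1.00 (SE 0.12, adjusted p = 1.68e-05), 1.05 (adjusted p = 0.00017) and 0.96 (SE 0.17, adjusted p = 0.00117), while Krt7 rose by 0.42. Krt8 was at 11.01, 10.95, 11.41 and 11.13 in air and 12.11, 12.09 and 12.16 after O3, so this abundant filament protein was 2.0-fold higher. Sfn, the 14-3-3 sigma protein of epithelium, rose by 1.23 (SE 0.22, adjusted p = 0.00127), clusterin (Clu) by 0.93, galectin-3 (Lgals3) by 0.79 and annexin A1 (Anxa1) by 0.69. Cldn4, a claudin of tight junctions that is known to be induced in injured alveolar epithelium, rose by 1.06 (SE 0.24, adjusted p = 0.0159), with adjusted p = 0.175 without the third O3 array and 0.0521 without the first 24-hr air array. It was the only called member of 18 genes of tight and adherens junctions. Of 14 EGF family ligands and receptors Ereg, epiregulin, rose by 0.67 (SE 0.16, adjusted p = 0.019, at most 0.148 on leaving out 1 array, the third of O3). Hbegf was at 8.50 to 9.21 in air and 9.25 to 9.67 after O3 (adjusted p = 0.313).

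Of 25 genes of airway mucins, ion transport and host defense 5 rose and 1 fell (median 0.14). Slc26a4, pendrin, an anion exchanger of airway epithelium, was at 5.64, 5.72, 6.08 and 5.55 in air and 7.85, 7.64 and 8.31 after O3 (change 2.18, SE 0.32, adjusted p = 0.000204). The membrane mucins Muc4 and Muc1 rose by 0.94 (SE 0.21, adjusted p = 0.0111) and 0.61 (adjusted p = 0.014), the former with adjusted p = 0.0883 without the second O3 array and 0.0525 without the first 24-hr air array. Without that air array or any 1 of the O3 arrays 3 of the list rose. Scnn1b, a subunit of the epithelial sodium channel, fell by 0.40 (SE 0.11, adjusted p = 0.048), from 9.19 to 9.68 in air to 9.04 to 9.12 after O3. Muc5b, the gel-forming mucin of club and gland cells, was at 6.87 and 7.30 in air of 24 hr, 8.91 and 8.12 in air of 48 hr and 9.76, 9.88 and 9.44 after O3. The change was 1.89 (SE 0.50, adjusted p = 0.0371), and its adjusted p was 0.0511 to 0.14 on leaving out any 1 of the 7 arrays but the first of 48 hr in air.

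Secretory genes of the larger airways split the air arrays in the same way. Bpifa1, an antimicrobial protein of upper airway epithelium, was at 5.38 and 5.79 in air of 24 hr, 12.12 and 10.74 in air of 48 hr and 10.54, 11.62 and 10.94 after O3 (change 2.53, SE 1.70, adjusted p = 0.533). The first O3 array lay below both 48-hr air arrays and the others between them. Reg3g, an antibacterial lectin, was at 4.95 and 5.60 in air of 24 hr, 9.30 and 7.54 in air of 48 hr and 9.74, 9.88 and 9.08 after O3 (change 2.72, SE 1.29, adjusted p = 0.315). Scgb3a1, a secretoglobin of larger airways, was at 9.94 and 9.80, then 12.87 and 11.99, and 12.08, 12.61 and 11.996 after O3 (adjusted p = 0.645), and Bpifb1 followed the same order (adjusted p = 0.648). These 4 genes were chosen after their values were seen. How much larger airway each left lobe held, and its part in the values of Muc5b, was not tested. Muc5ac, the mucin of goblet cells, was at 4.68 to 5.16 in air and 4.91 to 5.08 after O3.

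A minority of matrix genes moved. Of 30 matrix proteins 4 rose (13.3%, against 2.47% of all genes tested) and 0 fell, and the list's median was -0.12. Tnc, tenascin-C, a glycoprotein laid down in healing tissue, was at 6.46 to 7.56 in air and 9.34, 9.24 and 9.62 after O3, with no overlap (change 2.39, SE 0.47, adjusted p = 0.00372, and 0.0552 against air of 48 hr alone). Thbs1, thrombospondin-1, rose by 1.55 (SE 0.24, adjusted p = 0.000272), the proteoglycan Vcan by 0.97 (SE 0.17, adjusted p = 0.00107) and fibronectin, Fn1, by 0.68 (SE 0.16, adjusted p = 0.0214). Fn1 was at 10.42 on the second 24-hr air array and at 11.08 to 11.17 on the others, against 11.57 to 11.66 after O3, and its adjusted p was 0.0642 without that array and 0.112 without the third O3 array.

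Of 31 matrix proteases and inhibitors 3 rose and 2 fell (median 0.11). Timp1, the inhibitor of metalloproteinases, was at 7.38, 7.26, 7.35 and 6.66 in air and 9.70, 9.86 and 10.20 after O3, 6.77-fold higher (change 2.76, SE 0.60, adjusted p = 0.00925). Its adjusted p was 0.0682 without the third O3 array, when 1 gene of the list passed. Ctsk, a collagen-degrading cathepsin, rose by 1.42 (SE 0.24, adjusted p = 0.000764), and Serpina3n, a serine protease inhibitor, by 1.07 (SE 0.27, adjusted p = 0.0252, up to 0.129 on leaving out the third O3 array). Mmp11 fell by 0.63 (SE 0.15, adjusted p = 0.0212, and 0.175 without the third O3 array) and Timp2 by 0.32. Of 26 genes of blood vessels and coagulation 4 rose and 1 fell. F3, tissue factor, which starts clotting, was at 7.11, 7.34, 7.34 and 7.05 in air and 8.02, 8.44 and 8.57 after O3 (change 1.13, SE 0.21, adjusted p = 0.00176). F10, clotting factor X, rose by 1.07 (SE 0.23, adjusted p = 0.00866, and 0.068 without the third O3 array) and Tfpi2, a protease inhibitor, by 1.11 (SE 0.30, adjusted p = 0.0427, and 0.273 without that array), while Thbd, thrombomodulin, fell by 0.37. Without that array 2 of the list passed. Tfpi2 lost its call for 6 of the 7 arrays compared, left out in turn. The 3 probe sets of F10 differed by 0.12 to 1.07, and with their mean it was not called.

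A minority of genes of alternatively activated macrophages (3 of 20) and of scavenger and phagocytic receptors (4 of 24) rose, and none of either list fell. Retnla, a secreted resistin-like protein of alternatively activated macrophages that lung epithelium makes as well, was already abundant in air at 10.15, 10.12, 10.97 and 10.50 and reached 13.05, 12.87 and 13.11 after O3. The change was 2.57 (SE 0.29, adjusted p = 9.82e-06), or 5.95-fold, with no overlap between the groups. With it, Clec7a, the beta-glucan receptor dectin-1, rose by 0.92 (SE 0.14, adjusted p = 0.000286) and the transcription factor Egr2 by 0.78 (SE 0.18, adjusted p = 0.0142), the other called members of that list (median 0.29), while the chitinase-like Chil3 was at 11.96 to 12.25 in air and 12.33 to 12.82 after O3 (adjusted p = 0.35). On leaving out 1 array the adjusted p of Egr2 reached 0.093 (without the second O3 array). The median of the scavenger and phagocytic receptors was 0.26. Clec4n, dectin-2, was at 7.66, 7.90, 7.91 and 7.31 in air and 9.25, 9.40 and 9.35 after O3 (change 1.63, SE 0.33, adjusted p = 0.00443, and 0.0623 against air of 24 hr alone). Cd14, the coreceptor for endotoxin, rose by 1.04 (SE 0.14, adjusted p = 7.94e-05) and Tlr2 by 0.85 (SE 0.20, adjusted p = 0.0164). Tlr2 had adjusted p = 0.0975 without the third O3 array, when 2 of the list passed. Tril, an accessory protein of toll-like receptors, was at 6.996 to 8.00 in air and 5.96 to 6.67 after O3 and fell by 1.23 (SE 0.22, adjusted p = 0.00142).

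Of 34 acute phase proteins and targets of STAT3, 7 rose and 0 fell (median 0.12). Lrg1, a leucine-rich glycoprotein of the acute phase, was at 9.71, 10.12, 10.47 and 9.42 in air and 11.51, 11.72 and 11.68 after O3 (change 1.71, SE 0.25, adjusted p = 0.000198). Lcn2, the iron-sequestering lipocalin, rose by 1.13 (SE 0.21, adjusted p = 0.00209) and Socs3, which restrains cytokine signaling through STAT3, by 1.10 (SE 0.24, adjusted p = 0.00887, and 0.0703 without the third O3 array). Itih4 rose by 1.23 (SE 0.28, adjusted p = 0.0156, and 0.109 without that array). Saa3, serum amyloid A3, was at 5.58 to 6.43 in air and 7.59 to 7.89 after O3 (change 1.74, SE 0.46, adjusted p = 0.0376), and its adjusted p was 0.0517 to 0.18 on leaving out any 1 of the 7 arrays. Without the third O3 array 2 of the list passed, and without the first O3 array or the first 24-hr air array 4 did. Stat3 itself was at 11.10 to 11.35 in air and at most 11.26 after O3.

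Few cytokines and chemokines were called. The shares that rose were 7.14% of the IL-1 family, 13% of CC and 5.26% of CXC chemokines and receptors, against 2.47% of all genes tested. Of 14 genes of the IL-1 family 1 rose, Il33, an alarmin of epithelium, at 9.33, 9.88, 9.99 and 9.11 in air and 10.77, 10.79 and 10.75 after O3 (change 1.19, SE 0.20, adjusted p = 0.00083). Il1b was at 6.64 to 7.60 in air and 7.75 to 7.87 after O3, a difference of 0.66 with adjusted p = 0.206. Of 23 CC chemokines and receptors 3 rose. Ccl17, a chemokine for type 2 helper T cells, was at 7.46, 7.56, 7.18 and 6.79 in air and 8.63, 8.46 and 8.88 after O3 (change 1.41, SE 0.24, adjusted p = 0.00077). The receptor Ccr1 rose by 0.88 (SE 0.19, adjusted p = 0.00788, and 0.0658 against air of 48 hr alone), although its second probe set differed by 0.04. Ccl6 rose by 0.53 (SE 0.13, adjusted p = 0.0249, and 0.132 without the second O3 array). Of 19 CXC chemokines and receptors Cxcl16, a ligand that is also a scavenger receptor, rose by 0.50 (SE 0.13, adjusted p = 0.0327, and 0.222 without the third O3 array), while Cxcl2, which encodes the neutrophil attractant MIP-2, was at 4.13 to 4.19 in air and 4.23 to 4.63 after O3 (adjusted p = 0.164).

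Of 30 components and targets of TNF and NF-kappaB 1 rose (3.33%, against 2.47% of all genes tested). It was the adhesion molecule Icam1, by 0.41 (SE 0.10, adjusted p = 0.0266, and 0.127 without the second O3 array). Tnf was at 5.26 to 5.72 in air and 5.39 to 5.46 after O3, Nos2 at 4.57 to 4.96 and 4.76 to 4.81, Il6 at 3.89 to 4.43 and 4.64 to 4.82 (adjusted p = 0.153), Cd86 at 5.33 to 5.75 and 5.44 to 5.85, and Il10 at 3.92 to 4.25 and 4.03 to 4.12. These levels were below the median of all genes, and whether the probe sets were above background was not measured. Of 17 complement genes C2 fell by 0.63 (SE 0.17, adjusted p = 0.0488), with adjusted p of up to 0.193 on leaving out the third O3 array. None of 26 interferon-stimulated genes was called by limma. A negative difference was found for 23, and 5 had an unadjusted p under 0.05, against 1901 of all 12394 genes. Rsad2, the largest, was at 8.79 to 9.41 in air and 7.47 to 8.28 after O3 (adjusted p = 0.156).

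Most antioxidant genes were not called. Of 27 NRF2 targets and antioxidant enzymes 3 rose (11.1%, against 2.47% of all genes tested) and 1 fell (median 0.14). Akr1b8, an aldo-keto reductase that reduces lipid aldehydes, was at 7.91, 8.26, 8.31 and 7.81 in air and 9.18, 9.43 and 9.49 after O3 (change 1.30, SE 0.15, adjusted p = 1.02e-05). Thioredoxin reductase, Txnrd1, rose by 0.41 (SE 0.09, adjusted p = 0.00757) and glutathione reductase, Gsr, by 0.40 (SE 0.09, adjusted p = 0.0106). Catalase, Cat, fell by 0.39 (SE 0.10, adjusted p = 0.0474). The adjusted p was 0.0552 for Txnrd1 without the second O3 array, and without the third it was 0.0558 for Gsr and 0.283 for Cat. Cat lost its call for 6 of the 7 arrays compared, left out in turn. Of 20 glutathione S-transferases the membrane-bound Mgst3 rose, at 9.58, 9.56, 9.69 and 9.62 in air and 10.32, 10.83 and 10.72 after O3 (change 1.01, SE 0.20, adjusted p = 0.0048, and 0.0678 against air of 48 hr alone), though another probe set of this gene showed no such difference. The cytosolic Gstm1 and Gstm2 fell by 0.54 (SE 0.13, adjusted p = 0.0237, and 0.138 without the third O3 array) and 0.47 (SE 0.09, adjusted p = 0.00357, and 0.0675 against air of 48 hr alone), and 16 of the 20 had a negative difference. Of 26 genes of oxygen and xenobiotic metabolism 25 had a negative difference (median -0.24), and the epoxide hydrolase Ephx1 fell by 0.57 (SE 0.11, adjusted p = 0.00337, and 0.0503 against air of 48 hr alone). The exception was Cyp7b1, an oxysterol hydroxylase, which rose by 1.00 (SE 0.27, adjusted p = 0.0456, and 0.208 without the third O3 array). Its call was likewise lost for 6 of the 7 arrays left out in turn.

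Of 18 measured genes of cholesterol synthesis and its control, 9 rose, 0 fell and 17 had a positive change (median 0.61), and the mean level of the list was 8.66 to 8.91 on the O3 arrays and 8.07 to 8.19 on the air arrays. Fdps, farnesyl diphosphate synthase, was at 9.40, 9.03, 8.95 and 8.94 in air and 10.19, 10.29 and 10.68 after O3 (change 1.31, SE 0.23, adjusted p = 0.00125), although its second probe set differed by -0.01. Cyp51, lanosterol demethylase, was at 6.70, 7.05, 6.90 and 6.48 in air and 7.94, 7.84 and 8.34 after O3 (change 1.26, SE 0.27, adjusted p = 0.00761). Msmo1, a sterol methyl oxidase, rose by 1.00 (SE 0.23, adjusted p = 0.0178), Lss, lanosterol synthase, by 0.95 (SE 0.15, adjusted p = 0.000523) and Sqle, squalene epoxidase, by 0.89 (adjusted p = 0.00067). The 3 probe sets of Lss differed by -0.09 to 0.95, and with their mean its change was 0.34 (adjusted p = 0.0707). In these values the third O3 array was the highest of the 3 for Fdps, Cyp51 and Msmo1, and without it 3 of the list passed and the adjusted p was 0.0831 for Cyp51 and 0.202 for Msmo1. Against air of either time alone 4 passed. CCAAT stood in all 6 windows of the genes that rose and have one (38.1% of all windows). TCACNCCAC, a form of the sterol regulatory element, stood in 0 of 6 on either strand, against 1.13% of all windows. At so low a share 6 windows cannot show whether these promoters differ from all genes, and other forms of the element were not sought. The 150 bases before the start, with CCAAT or its reverse complement in capitals, are given for Cyp51 (chr5:4104698-4104847 on the minus strand) and Msmo1 (chr8:64733579-64733728 on the minus strand).
Cyp51: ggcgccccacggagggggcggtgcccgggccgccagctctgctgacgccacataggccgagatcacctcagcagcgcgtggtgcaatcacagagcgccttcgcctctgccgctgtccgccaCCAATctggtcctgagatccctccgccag
Msmo1: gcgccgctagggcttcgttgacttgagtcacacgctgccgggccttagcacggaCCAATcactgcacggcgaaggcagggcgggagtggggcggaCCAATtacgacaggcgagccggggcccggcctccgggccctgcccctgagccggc

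Other metabolic genes moved less. Of 21 genes of glycolysis and hypoxia 3 rose, all enzymes: Pgk1 by 0.56 (SE 0.09, adjusted p = 0.00083), Ldha by 0.53 (SE 0.12, adjusted p = 0.0145, and 0.0979 without the third O3 array) and Gapdh by 0.46 (SE 0.09, adjusted p = 0.00357). Gapdh, often used as a reference gene, was at 11.97 to 12.11 in air and 12.46 to 12.54 after O3, and the ranges did not overlap. Ctps, which makes cytidine nucleotides, was the only one called of 21 genes of arginine, polyamine and nucleotide metabolism, at 8.56, 8.87, 8.89 and 8.60 in air and 9.83, 9.88 and 9.94 after O3 (change 1.15, SE 0.18, adjusted p = 0.000269). Of 25 genes of fatty acid synthesis and lipid handling, Ch25h, cholesterol 25-hydroxylase, rose by 1.00 (SE 0.27, adjusted p = 0.0443) and Scd1, stearoyl-CoA desaturase, by 0.43 (SE 0.12, adjusted p = 0.048), while Apoe fell by 0.60 (SE 0.16, adjusted p = 0.0443). Without the third O3 array these reached adjusted p = 0.207, 0.283 and 0.216. Ch25h lost its call on leaving out any 1 of the 7 arrays compared. Scd1 and Apoe each lost it for 6 of the 7 left out in turn. Egr1, an immediate early transcription factor, rose by 1.04 (SE 0.18, adjusted p = 0.00117) and with Egr2 made up the 2 called of 22 immediate early genes.

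**Figure D3:**
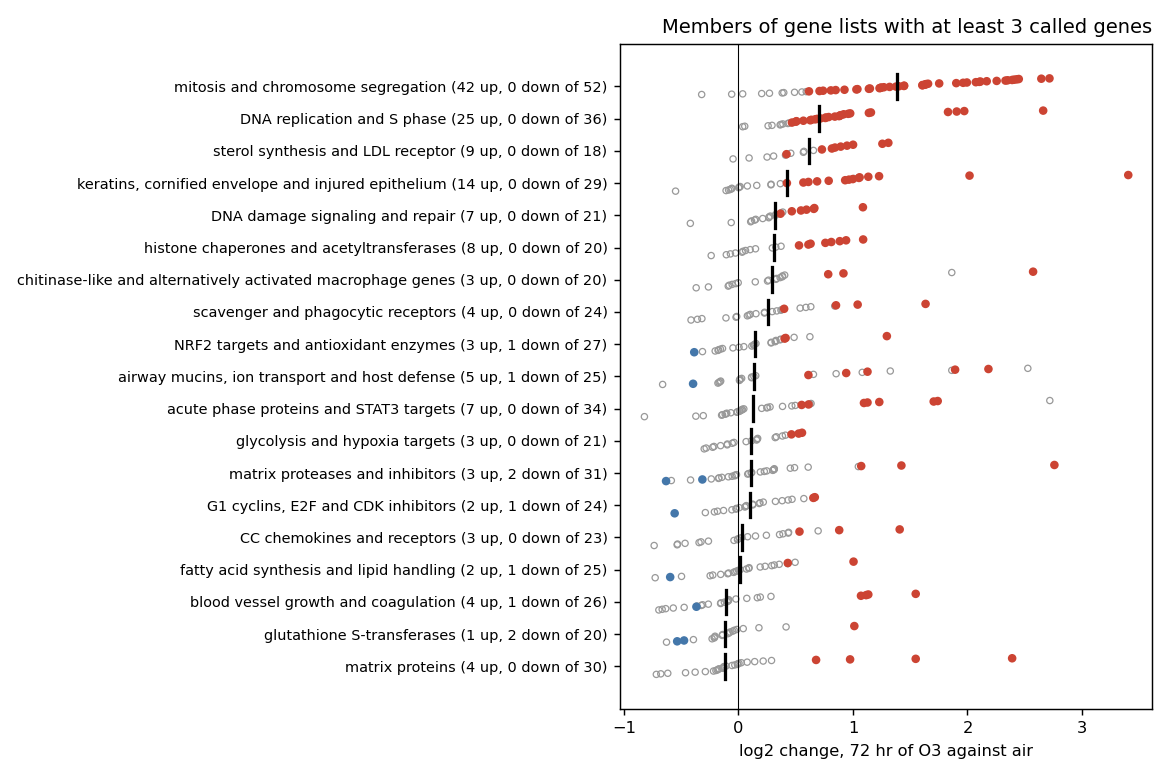
Changes of the measured members of the 19 pathway lists with at least 3 called genes between 72 hr of O3 and air (log2, horizontal axis). Each point is a gene, red where it rose, blue where it fell and open where it did not pass, and the bar is the list median. The medians of mitosis (1.39) and DNA replication (0.70) lie highest, and that of matrix proteins is -0.12 although 4 of its members rose.

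Of 38 pathway lists, 6 had no called member by limma at 72 hr, when 2.47% of all genes tested rose and 0.686% fell. These were interferon-stimulated genes (median -0.25, 5 of 26 at an unadjusted p under 0.05), the unfolded protein response (0.26, 4 of 22), cytosolic heat shock proteins (0.33, 2 of 13), the circadian clock (-0.18, 3 of 17), MHC class II and costimulation (-0.16, 2 of 14) and metallothioneins and zinc transporters (0.11, 3 of 11). Over all genes, 1901 of 12394 had an unadjusted p under 0.05, and these counts stand against that share. The unfolded protein response had a positive difference in 20 of 22 genes, the largest in Sdf2l1 (0.85, adjusted p = 0.324) and Manf (0.63, adjusted p = 0.142). Hspa1a and Hspa1b, the inducible chaperones of the heat shock list, spread as widely within air (8.10 to 10.23 and 9.56 to 11.07) as they differed after O3 (9.07 to 10.29 and 10.43 to 11.28). In the clock list Bhlhe40 was at 7.97 to 8.84 in air and 9.25 to 9.58 after O3 (adjusted p = 0.0813), and Per1 at 9.13 to 9.84 and 8.34 to 8.95 (adjusted p = 0.392). Of 18 glucocorticoid targets 1 rose (5.56%), Lcn2, and the median was -0.17.

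The genes that fell shared no list of more than 2 called members. Of the 85, 68 stood in none of the lists. Acaa1b, a peroxisomal thiolase of fatty acid oxidation, fell furthest, from 7.27, 7.45, 7.71 and 6.45 in air to 5.28, 5.71 and 5.07 after O3 (change -1.87, SE 0.33, adjusted p = 0.00142), 3.65-fold lower. Igfbp3, which binds insulin-like growth factors, went from 9.23, 8.97, 9.40 and 9.25 to 7.87, 8.32 and 7.36 (change -1.36, SE 0.26, adjusted p = 0.0023). It was the only called gene of 12 of its list, of which 11 had a negative difference (median -0.35). Pon1, paraoxonase, an antioxidant esterase carried on high-density lipoprotein, went from 10.81, 10.95, 10.47 and 10.56 to 9.15, 9.75 and 9.47 (change -1.24, SE 0.21, adjusted p = 0.001). For these 3 genes every O3 array lay below every air array, which the rule that named them required.

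Of 30 genes of TGF-beta and BMP signaling Smad4 fell and Fst rose (median -0.10). Rspo1, R-spondin-1, an agonist of Wnt signaling, fell by 1.06 (SE 0.17, adjusted p = 0.000647) and Bambi, a decoy receptor of the TGF-beta family, by 0.86 (SE 0.15, adjusted p = 0.00117). Scube2, a secreted carrier of hedgehog ligands, fell by 0.93 (SE 0.25, adjusted p = 0.0419, and 0.262 without the third O3 array), as did Gdf10, a ligand of the TGF-beta family, by 0.97 (SE 0.24, adjusted p = 0.0297, and 0.216 without it) and Smad4, the shared transducer of that family, by 0.53 (SE 0.12, adjusted p = 0.0152, and 0.148 without it). Follistatin, Fst, which binds activin, rose by 1.02 (SE 0.24, adjusted p = 0.0187, and 0.169 without the same array). Scube2 and Gdf10 each lost the call for 6 of the 7 arrays compared, left out in turn. Bex2 fell by 1.11 (SE 0.14, adjusted p = 4.24e-05) and Slc4a5, a sodium bicarbonate cotransporter, by 0.98 (SE 0.14, adjusted p = 9.21e-05). Gria1, a glutamate receptor subunit, and Tent5c fell by 1.04 (SE 0.26, adjusted p = 0.0293) and 0.90 (SE 0.23, adjusted p = 0.0322), and their adjusted p was at most 0.114 and 0.216 on leaving out 1 array, the first and the third of O3.

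Marker genes of lung cell types moved far less than the cell cycle genes. Of 19 marker lists, 13 had no called gene, where 2.47% of all genes tested rose and 0.686% fell. At that share a list of 6 to 14 measured genes would often hold none. The 11 markers of type 2 alveolar cells had a median difference of 0.13, with mean levels of 11.97 to 12.09 after O3 and 11.87 to 11.95 in air. Sftpd, surfactant protein D, was the nearest to the threshold (0.31, adjusted p = 0.0517). The 9 markers of type 1 cells had a median of -0.11 and lay at 11.55 to 11.62 and 11.67 to 11.71, and the 14 endothelial markers a median of -0.22 at 10.63 to 10.73 and 10.85 to 10.92, with 13 of 14 negative and none called. Of 12 club cell markers Retnla rose and Cckar, a hormone receptor, fell by 0.36 (SE 0.09, adjusted p = 0.0318, and 0.16 without the first O3 array). Of 7 ciliated cell markers (median -0.11) only Tppp3, a tubulin-binding protein, was called. It was at 11.62 to 12.21 in air and 10.98 to 11.60 after O3. The fall was 0.60 (SE 0.15, adjusted p = 0.0306, 0.298 without the third O3 array and 0.344 against air of 24 hr alone). Mean levels of the ciliated list were 8.324 to 8.597 after O3, 8.304 and 8.424 in air of 24 hr, and 8.745 and 8.821 in air of 48 hr. Of 7 mesothelial markers Krt8 and Krt19 rose, which epithelium makes as well, and Upk3b fell by 0.79 (SE 0.21, adjusted p = 0.0455, up to 0.167 on leaving out the first 24-hr air array), its highest O3 array (8.23) lying above the lowest air array (8.20).

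Markers of neutrophils, B cells, T cells and natural killer cells were for the most part lower after O3 without passing the test. The 11 neutrophil markers had a median difference of -0.35, none was called and 1 had an unadjusted p under 0.05, at mean levels of 6.31 to 6.39 after O3 and 6.41 to 7.03 in air. S100a9, the abundant calgranulin of neutrophils, was at 9.36 to 9.89 after O3 and 9.79 to 11.41 in air. All 10 B cell markers (median -0.44), all 11 T cell markers (median -0.18) and all 10 natural killer cell markers (median -0.33) had a negative difference, none was called, and 2, 1 and 3 of them had an unadjusted p under 0.05. Of all 12394 genes 1901 had an unadjusted p under 0.05. The red blood cell gene Slc4a1 went from 7.10 to 7.71 in air to 5.34 to 6.51 (adjusted p = 0.0745). Of 10 markers of monocytes and interstitial macrophages Cd14 rose (list median 0.077, with 6 positive and 4 negative differences). Among 10 markers of dendritic cells Ccl17 rose (list median 0.035, with 7 positive and 3 negative differences). None of 11 alveolar macrophage markers was called (median -0.05, 2 at an unadjusted p under 0.05). The 10 cardiac muscle markers, which heart and the large pulmonary veins of mice express, varied by array (7.17 to 8.75 after O3, 7.21 to 8.88 in air) and none was called. The part that these cell types had in the results above was not tested.

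**Figure D4:**
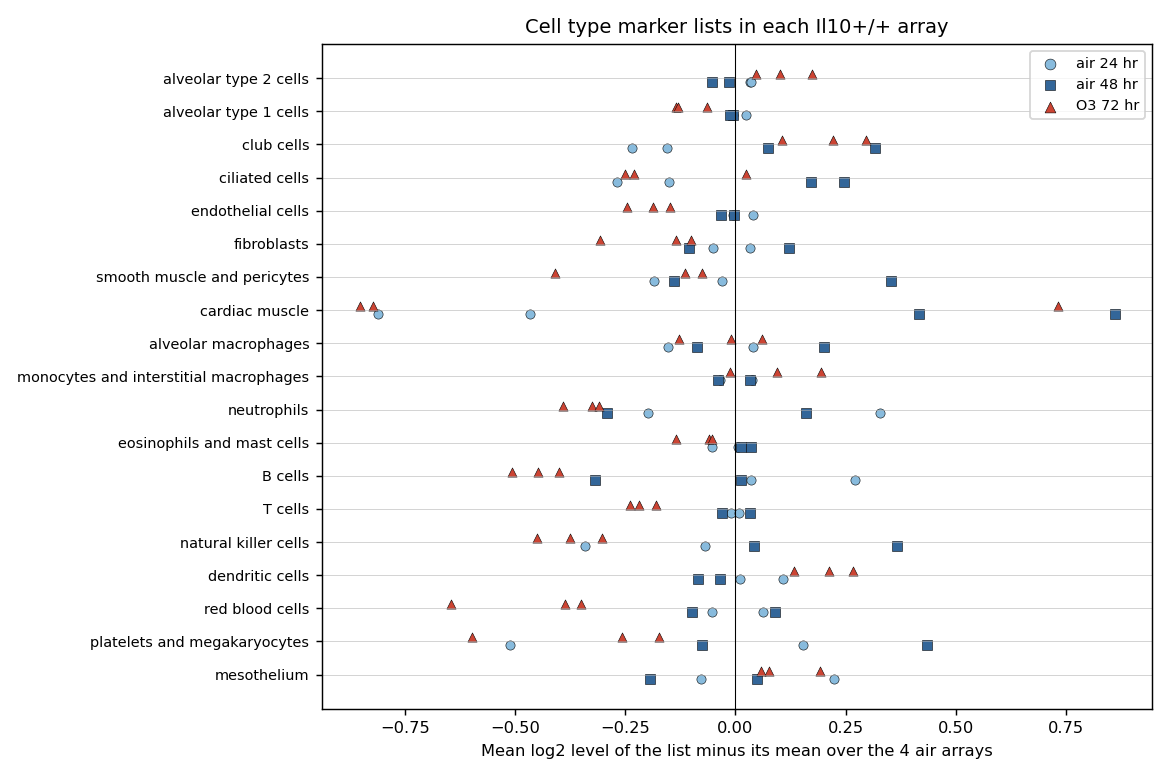
Mean log2 expression of each of the 19 marker lists minus the list's mean over the 4 air arrays (horizontal axis), with 1 point per array: circles for air of 24 hr, squares for air of 48 hr and triangles for 72 hr of O3. Cardiac muscle markers spread most within a group, and ciliated cell markers are lower in air of 24 hr than in air of 48 hr.

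Against 24 hr of O3, 126 genes were higher at 72 hr and 21 lower, 1.02% and 0.169% of the genes tested. The mitosis list accounted for 41 of the 126 (median difference 1.51) and DNA replication for 17. Birc5 differed by 3.02 (SE 0.34, adjusted p = 1.12e-05), Cep55 by 2.93 (SE 0.22, adjusted p = 4.13e-08), Pbk by 2.75 (SE 0.31, adjusted p = 1.12e-05) and Mki67 by 2.75 (SE 0.33, adjusted p = 2.1e-05). Of the keratin and injury list 4 genes were higher at 72 hr, of matrix proteases and inhibitors 2, of histone chaperones 6, and of matrix proteins, alternatively activated macrophage genes and scavenger receptors 1 each. Several of the genes with large changes against air were not called between the times. The 72-hr level exceeded the 24-hr level by 1.17 for Sprr1a (adjusted p = 0.489), 0.23 for Timp1 (adjusted p = 0.989), 1.23 for Tnc (adjusted p = 0.453) and 1.09 for Retnla (adjusted p = 0.118). Higher at 72 hr were the epithelial genes S100a14 by 1.46 (SE 0.28, adjusted p = 0.00515), Krt18 by 0.74 (SE 0.16, adjusted p = 0.0191), Krt8 by 0.63 (SE 0.13, adjusted p = 0.00897) and Anxa1 by 0.50 (SE 0.12, adjusted p = 0.0304). So were Ctsk by 1.22 (SE 0.26, adjusted p = 0.0134), the membrane metalloproteinase Mmp14 by 0.62 (SE 0.15, adjusted p = 0.034), Vcan by 1.06 (SE 0.18, adjusted p = 0.00156), Clec7a by 0.78 (SE 0.15, adjusted p = 0.00561) and the Fc receptor Fcgr3 by 0.47 (SE 0.10, adjusted p = 0.0166). Among the genes lower at 72 than at 24 hr, Upk3b (-1.39, SE 0.23, adjusted p = 0.000964), a gene of mesothelium, led Pon1 (-1.27, SE 0.23, adjusted p = 0.00251), the lectin Lgals2 (-1.20, SE 0.28, adjusted p = 0.0287), Rspo1 (-1.05, SE 0.19, adjusted p = 0.0024) and C2 (-0.96, SE 0.19, adjusted p = 0.00621). Of 7 mesothelial markers Upk3b and Bnc1 (lower by 0.62, adjusted p = 0.0337) were lower at 72 hr and Krt8, which epithelium makes as well, was higher. Without the third 72-hr array or the first 24-hr O3 array 93 and 96 genes in all were called.

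Between 72 and 48 hr of O3 no gene passed (0% of genes tested by limma). An unadjusted p under 0.05 was found for 204 of 12394 genes, a smaller share than the 0.05 that chance alone would give. The count of genes that passed was 2 with array weights, at most 1 on leaving out 1 array, and 0 in the other alternatives. The 95% intervals given next are not adjusted for the number of genes tested. Kif20a, a kinesin of cytokinesis in the mitosis list, came closest, higher at 72 hr by 0.84 with a 95% interval of 0.54 to 1.15 (adjusted p = 0.136). The interval was 0.25 to 1.15 for Cep55 and -0.29 to 1.10 for Cdk1. The mitosis list had a median difference of 0.36 between 72 and 48 hr and DNA replication one of 0.00. For Rspo1 the interval was -1.10 to -0.33, and for Sprr1a it was -0.97 to 1.07 and so allowed a difference in either direction.

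The 3 exposure times share their air arrays, so their changes against air are given side by side and not as independent evidence. At 24 hr 6 genes in all rose and 0 fell by limma (0.0484% and 0% of the genes tested), with 730 at an unadjusted p under 0.05. At 48 hr 336 rose and 124 fell (2.71% and 1%). In the mitosis list 0, 38 and 42 genes rose at 24, 48 and 72 hr, with medians of -0.07, 1.07 and 1.39, and in DNA replication 0, 25 and 25 (0.04, 0.74 and 0.70). The keratin list counted 1, 12 and 14 genes (0.18, 0.33 and 0.42), the sterol list 0, 6 and 9 (0.25, 0.55 and 0.61) and scavenger receptors 1, 1 and 4 (0.03, 0.22 and 0.26). Acute phase genes numbered 0, 10 and 7 (0.16, 0.26 and 0.12), and NRF2 targets 2, 6 and 3 (0.15, 0.15 and 0.14).

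**Figure D5:**
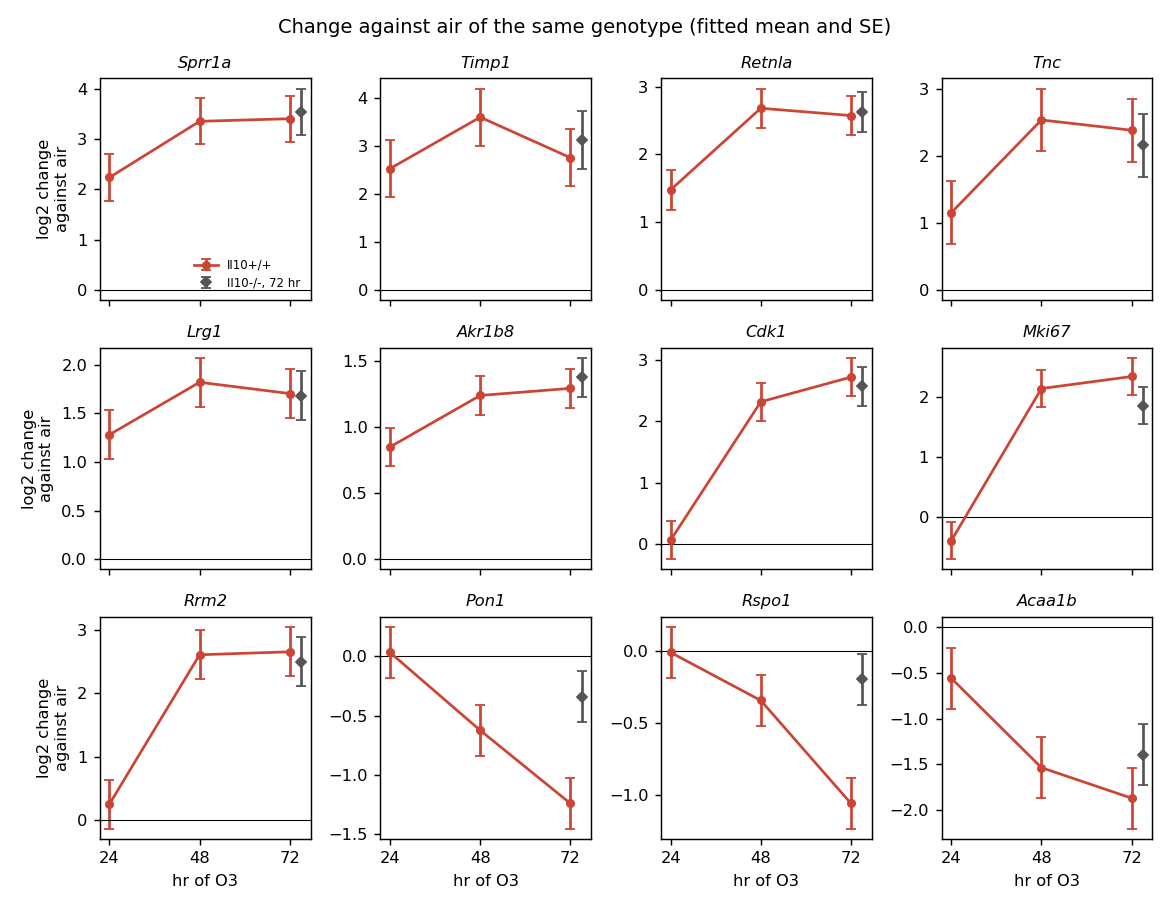
Log2 change against air (vertical axis) of 12 named genes after 24, 48 and 72 hr of O3 (horizontal axis) in Il10+/+ lungs (circles, joined by a line) and after 72 hr in Il10-/- lungs (diamonds), as fitted mean with SE bars. At 72 hr Cdk1 stands at 2.72 in Il10+/+ and 2.56 in Il10-/- lungs, and Pon1 at -1.24 and -0.34.

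In Il10-/- mice 72 hr of O3 was compared with Il10-/- air in the same way, and the difference between the 2 changes was tested by limma as an interaction. No gene passed (0%), and the lowest adjusted p was 1.0. An unadjusted p under 0.05 was found for 309 of 12394 genes, a smaller share than the 0.05 that chance alone would give. The count of genes that passed was 1 with array weights and 0 on leaving out any array. In Il10-/- lungs 527 genes rose and 201 fell, 4.25% and 1.62% of the genes tested, more than in Il10+/+ lungs. There 41 of 52 mitosis genes rose (median 1.22), 27 of 36 of DNA replication (0.77), 14 of 29 keratin and injury genes (0.41) and 8 of 18 sterol genes (0.48). Many lists had more genes that rose in Il10-/- than in Il10+/+ lungs, as did all genes tested (527 against 306). Among them were NRF2 targets (9 against 3), scavenger receptors (9 against 4), matrix proteases and inhibitors (7 against 3) and glycolysis (7 against 3). Others were acute phase genes (10 against 7), CC chemokines (5 against 3) and TNF and NF-kappaB genes (3 against 1). Fewer rose in the lists of mitosis, sterol synthesis, DNA repair (5 against 7), airway mucins (4 against 5) and CXC chemokines (0 against 1). No member's difference between the genotypes passed. The change of Cdk1 was 2.56 (SE 0.31) in Il10-/- and 2.72 (SE 0.31) in Il10+/+ lungs, and the 95% interval of the difference was -1.07 to 0.77. For Sprr1a the change was 3.54 (SE 0.46) in Il10-/- lungs and the interval -1.21 to 1.49, and for Retnla 2.62 (SE 0.29) and -0.80 to 0.91.

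Several genes that moved in Il10+/+ lungs had a smaller change in Il10-/- lungs, though none of the differences passed. Muc5b, Pon1 and Rspo1 are examples picked with their values known. Their intervals and unadjusted p-values take no account of the 12394 genes tested. Muc5b changed by -0.15 (SE 0.50) in Il10-/- lungs, a difference of -2.04 with a 95% interval of -3.50 to -0.58 (limma unadjusted p = 0.00835, adjusted p = 1.0). Pon1 changed by -0.34 (SE 0.21) and Rspo1 by -0.20 (SE 0.17), with intervals of 0.27 to 1.53 and 0.35 to 1.37 for the difference (limma unadjusted p = 0.00712 and 0.00221). Markers of neutrophils had a median change of 0.50 in Il10-/- and -0.35 in Il10+/+ lungs, with 2 and 0 of 11 called. For cytosolic heat shock proteins the medians were -0.43 and 0.33, and 3 of 13 fell in Il10-/- lungs.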

How the data were processed

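The authors summarized the arrays' intensity files with Robust Multichip Average in RMAExpress (background correction, quantile normalization, median polish; version not given in the sources used here) and deposited log2 values, which were used unchanged. Robust Multichip Average makes the array distributions equal, so a shift of all genes together would not show. Of 22690 probe sets, 20393 had 1 symbol in the platform's annotation, 691 with several and 1606 without one (64 controls) were left out, and each of 12394 genes was represented by its brightest probe set on average. Array medians were 6.541 to 6.683. The number of arrays limits the precision.

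A limma model (version 3.58.1, R 4.3.3) was fitted over 25 arrays with a mean for each of 8 groups (genotype by air, 24, 48 and 72 hr of O3; air of 24 and 48 hr pooled), with empirical Bayes moderation, Benjamini-Hochberg adjustment over 12394 genes and a threshold of 0.05. The script was tested on simulated data. Alternatives were all 26 arrays, only the 7 arrays compared, only Il10+/+ arrays, array weights, air of 1 time, a replicate block, a letter in the sample names as covariate, leaving out the lowest 0.3333 of genes, median centring, the mean of probe sets, a 2-fold minimum and leaving out each array.

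The members and the lists (38 of pathways, 19 of markers, 1061 of 1182 genes measured) were chosen with earlier results of these data known, as was the rule for naming genes: the 12 largest changes each way with arrays apart, 5 each way in the other comparisons, the 4 largest called per list, up to 2 as values in lists with fewer than 2 called, the highest marker per cell type and genes in the study's text. Other genes were named after their values were seen. Promoters are from RefSeq (GRCm38.p6), from the first listed start (1949 genes have several), and those of a single chromosome were left out.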

Additional observations from a re-analysis of the deposited data

Results flagged for a closer look

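In 9 of the 191 named genes 1 of the 4 air arrays stood apart, its gap to the nearest array divided by the whole range exceeding Dixon's critical value for 4 arrays. Chance gives about 1 such group in 20. For Rspo1 the first 48-hr air array was at 6.44 and the others at 7.23 to 7.36 (0.863), and that array was the one nearest to the O3 arrays. The second 48-hr air array was low for Bambi (8.09 against 8.54 to 8.58, 0.914), Gria1 (6.04 against 6.87 to 6.999, 0.868) and Timp1 (6.66 against 7.26 to 7.38, 0.832), and high for Tent5c (10.42 against 9.999 to 10.05, 0.867). The second 24-hr air array was low for Fn1 (10.42 against 11.08 to 11.17, 0.887) and high for Marco (8.07 against 6.86 to 7.03, 0.855) and Tk1 (5.48 against 5.09 to 5.13, 0.915). For Cd14 the first 24-hr air array was at 8.53 and the others at 8.94 to 9.01 (0.847). No cause was tested.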

How the results depend on the processing

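The naming rule gave 103 called genes, each of which kept its direction under every alternative, and genes named beyond it were not followed. Of these genes, 49 stayed called in all alternatives but the fit of 26 arrays, 57 on leaving out each of the 7 arrays compared, and 8 with 26 arrays (Cep55, Clec7a, Ctps, Lss, Pgk1, S100a14, Slc26a4 and Sprr1a). Ch25h and Saa3 lost the call on leaving out any 1 of the 7. Apoe, Cat, Cxcl16, Cyp7b1, Gdf10, Gria1, Muc5b, Scd1, Scube2, Serpina3n, Sesn1, Tfpi2 and Upk3b each lost it for 6 of the 7. The numbers of genes higher and lower against air were 306 and 85. They became 17 and 0 with all 26 arrays, 482 and 269 with only Il10+/+ arrays, 931 and 682 with array weights, 187 and 41 with air of 24 hr only, 171 and 30 with air of 48 hr only, and 110 and 7 with a 2-fold minimum, and 211 were lower with only the arrays compared. Leaving out 1 array gave 171 to 471 higher and 18 to 201 lower. Genes that differed between 72 and 24 hr numbered 147, and 1 with all 26 arrays, 222 with only Il10+/+ arrays, 350 with array weights, 93 without the lowest-expressed genes, 71 with a 2-fold minimum and 93 to 231 on leaving out 1 array. Between 72 and 48 hr 0 genes became 2 with array weights and 0 to 1 on leaving out 1 array, and for the genotype difference 0 became 1 with weights and stayed at 0 on leaving out 1 array. The cause was not tested. The replicate numbers did not pair the arrays (same-numbered deviations correlated at 0.293, 0.131, 0.196 and -0.28), and with the replicate block 313 rose, 94 fell, 159 differed between 72 and 24 hr, and 0 in the other 2 comparisons.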
